A study of Mus musculus with 16 samples.

Results

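The genes described here are 6 families of enzymes that modify drugs, dietary chemicals, steroids and other small molecules in the intestinal epithelium, measured by RNA sequencing in mouse jejunal enteroids whose motor protein myosin Vb (MYO5B) was intact, deleted or carried the G519R point mutation. They were chosen by name alone, as every protein-coding gene whose symbol begins with Cyp2 and a letter, Cyp3a, Ces1 to Ces5, Ugt1 or Ugt2, Gst and a letter, or Sult. The rule found 140 of 54532 genes in the count table, among 22046 protein-coding genes, and 32 pseudogenes with the same kind of name were not taken. By family there were 49 Cyp2, 9 Cyp3a, 19 Ces, 19 Ugt, 23 Gst and 21 Sult genes. One of the 23, Gstcd, is caught by its symbol but encodes a protein that only contains a glutathione S-transferase domain.

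Enteroids are epithelial cultures grown from intestinal crypts, here from the jejunum of adult mice that had received no tamoxifen in vivo. Each of the 4 groups held 4 cultures, from 4 mice per group by the study's account, and the p-values below measure the spread between these cultures. MYO5BΔIEC enteroids carried Vil1-CreERT2 and Myo5b flox/flox, MYO5B(G519R) enteroids carried Vil1-CreERT2 and Myo5b flox/G519R, and in both the villin promoter limits the inducible Cre to intestinal epithelium. The sample records give the controls no genotype. The study's methods name Vil1-CreERT2; Myo5b flox/flox mice as the source of the control enteroids too, with ethanol as the vehicle of 4-OH-tamoxifen, and elsewhere the study calls them healthy littermates. Cre was induced with 1 µM 4-OH-tamoxifen for 24 h, which the records name for the 3 groups with deleted or G519R-mutant MYO5B (below, the MYO5B-altered groups), so an effect of 4-OH-tamoxifen and an effect of the MYO5B change cannot be told apart. All cultures were then differentiated in medium without added Wnt ligands and EGF. A further group of MYO5BΔIEC enteroids received 100 nM Compound-1, a synthetic agonist of the lysophosphatidic acid receptor LPAR5, for 2 days. The MYO5BΔIEC group without Compound-1 is labelled as given vehicle, and is called untreated below. RNA from whole cultures was measured, so fewer cells of a type and less RNA per cell cannot be told apart.

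Xenobiotic metabolism is usually described in phases. Phase I enzymes add or uncover a reactive group: the cytochromes P450 of the CYP2 and CYP3A families oxidise their substrates with electrons from P450 oxidoreductase, and the carboxylesterases (CES) hydrolyse esters and amides. Phase II enzymes attach a polar group: UDP-glucuronosyltransferases (UGT) transfer glucuronic acid, glutathione S-transferases (GST) glutathione, and sulfotransferases (SULT) sulfate. Enterocytes carry many of these enzymes and meet swallowed chemicals before the liver does. The nuclear receptors PXR (Nr1i2) and CAR (Nr1i3) and the aryl hydrocarbon receptor (Ahr) are known to turn on many of the genes in response to their ligands, and the nuclear receptor HNF4 is known for their basal expression in liver and gut.

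A short motif known to be bound by HNF4 was looked for in the member promoters, and windows around it are printed here from 2 gene clusters described below. RefSeq promoters on GRCm38.p6, each running from 250 bases before to 50 bases after a transcription start, could be matched for 121 of the 140 members and gave 137 promoters. The HNF4 site CAAAGTCCA, read on both strands, lay in 11 of them (8.03%) and in 156 of all 32851 promoters (0.475%). It was in 4 of 10 Cyp3a promoters, 6 of 43 Cyp2 promoters and 1 of 20 Sult promoters, and no Ces, Ugt or Gst promoter held these letters. Of 31 promoters of members called lower in MYO5B(G519R) enteroids, 3 (9.68%) held it, near the 8.03% of all member promoters. Among the genes with a window below, Cyp2c67 and Cyp2c70 were called in no comparison, while the called Cyp2c66 held no such site. The windows below give 30 bases on each side of the site, 5′ to 3′ on the gene's strand, with the site in capitals.
Cyp3a11, chr5:145879925-145879993 (minus strand): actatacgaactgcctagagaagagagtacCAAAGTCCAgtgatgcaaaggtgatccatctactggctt
Cyp2c65, chr19:39060860-39060928 (plus strand): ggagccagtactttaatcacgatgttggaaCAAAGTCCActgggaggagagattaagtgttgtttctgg
Cyp2c67, chr19:39649129-39649197 (minus strand): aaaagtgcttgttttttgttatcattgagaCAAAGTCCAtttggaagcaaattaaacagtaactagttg
Cyp2c68, chr19:39741140-39741208 (minus strand): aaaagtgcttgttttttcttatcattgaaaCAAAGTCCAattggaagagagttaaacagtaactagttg
Cyp2c70, chr19:40187312-40187380 (minus strand): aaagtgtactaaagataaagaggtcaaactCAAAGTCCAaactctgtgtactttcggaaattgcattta

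Among the other motifs searched, the core of the antioxidant response element, TGACNNNGC, read on both strands, lay in 6 member promoters (4.38%) against 12.4% of all promoters, and the aryl hydrocarbon receptor core GCGTG in 24 (17.5%) against 32.4%. None of the motifs given is contained in another. These matches describe letters in a window of 300 bases and are no evidence of binding in the enteroids.

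Each culture gave 27804968 to 40101729 counts, and the 140 genes took 0.734 to 1.29% of them in control, 0.861 to 1.22% in untreated and 0.907 to 1.33% in treated MYO5BΔIEC, and 0.746 to 0.957% in MYO5B(G519R) cultures. Of the 140, 89 passed a filter of 10 or more counts in 2 or more of the 16 libraries, 67 had 10 or more in every library and 25 had no count in any. A count of 0 leaves room for a level of up to 0.0737 to 0.111 CPM (counts scaled to library size by the TMM method) at these depths, by counting error only. Myo5b itself was at 160 to 230 CPM in control, 101 to 170 in untreated and 87.2 to 149 in treated MYO5BΔIEC, and 136 to 173 CPM in MYO5B(G519R) cultures. Its log2 fold change against control was -0.55 (adjusted p = 0.0503) and -0.77 (adjusted p = 0.0146) in the MYO5BΔIEC groups and -0.33 (adjusted p = 0.109) in MYO5B(G519R) enteroids, and gene-level counts include exons outside a floxed one, so they do not check the deletion by themselves. Enterocyte markers were abundant in every culture, while summed markers of immune cells, fibroblasts and endothelium reached at most 3.47, 0.956 and 1.35 CPM, with Col3a1, Dcn, Lum and Adgre1 at 0.

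Control culture 1 stood apart from the other controls. Its 12 enterocyte markers summed to 4836 CPM against 15614 to 20056 CPM in control cultures 2 to 4, and Fabp1, the liver-type fatty acid binding protein of enterocytes, was at 245 CPM against 3677 to 4449 CPM. Fabp1 was at 417 to 1629 CPM in the MYO5B-altered cultures. Not every marker was low in control culture 1. Anpep was at 167 CPM against 156 to 174, and Lct at 37.2 CPM against 22.7 to 35.9. Control culture 1 had the lowest level of the 4 controls in 65 of the 89 members that passed the count filter and the highest in 13. Counts of calls over all members and by family are therefore given with and without it, and other counts of calls with it only.

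Which members are most abundant can be read only per length, from the FPKM values deposited by the authors. In control enteroids glutathione S-transferases led: Gstm1 had 511 ± 152 FPKM (SD, n = 4), Gstm3 493 ± 50.4, Gsta1 431 ± 242 and Gstp1 425 ± 79.4 FPKM. Among the carboxylesterases Ces2a was at 335 ± 112 and Ces2e at 284 ± 93.1 FPKM. Ugt2b34 led its family with 206 ± 15.7 FPKM, Cyp2c65 the Cyp2 genes with 176 ± 40.9 FPKM, Cyp3a13 the Cyp3a genes with 139 ± 48.8 FPKM and Sult1d1 the sulfotransferases with 63.0 ± 16.7 FPKM. Ugt2b34 stood clear of the next Ugt gene, Ugt2b35 at 58.2 ± 3.69 FPKM, while in the other 5 families the control SDs of the leading gene and the next overlapped, so that their order is not firm. In all, 66 members exceeded 1 FPKM in control, 49 exceeded 10 and 18 exceeded 100, and in MYO5B(G519R) enteroids 59, 44 and 12 did.

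Against control, more members were lower than higher in each MYO5B-altered group. A call is an adjusted p under 0.05 in edgeR's quasi-likelihood test, adjusted by the Benjamini-Hochberg method over all genes tested, with 4 cultures per group, and adjusted p-values below are from that test unless another tool is named. In MYO5BΔIEC enteroids 17 of 87 members tested were lower and 5 higher, beside 13.8% of all 17951 genes lower and 13.5% higher. In MYO5B(G519R) enteroids 31 of 87 were lower and 2 higher, beside 13.7% of all 17829 genes lower and 13.1% higher. In Compound-1-treated MYO5BΔIEC enteroids 27 of 88 were lower than control and 5 higher, beside 13.7% of all 17937 genes lower and 15.7% higher. The median log2 fold change of the members was -0.47, -0.74 and -0.54 in the 3 comparisons, and that of all genes tested was -0.011, -0.052 and -0.053. Members below 0 were 67 of 87, 75 of 87 and 71 of 88. These 3 comparisons use the same control cultures and are not independent of each other.

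Leaving out control culture 1 raised the counts of lower members to 44, 57 and 46 and those of higher members to 6, 4 and 5, while the shares of all genes rose to 20.8% lower and 21.2% higher, 22.1% and 24.0%, and 19.2% and 22.9%. Without it 9, 14 and 11 Cyp2, 3, 3 and 3 Cyp3a and 6, 8 and 7 Ces genes were lower. Among Ugt genes 9, 12 and 11 were lower, among Gst genes 16, 18 and 10 and among Sult genes 1, 2 and 4. Higher were 2, 1 and 0 Cyp2, 0, 0 and 1 Cyp3a, 3, 2 and 2 Ces and 1, 1 and 2 Sult genes. No Ugt or Gst gene was higher. All 22, 33 and 32 calls made with control culture 1 were also made without it. Leaving out any other culture gave 9 to 24, 18 to 32 and 19 to 31 calls. Members that kept their call whichever culture was left out numbered 6 of 17 lower and 2 of 5 higher for MYO5BΔIEC, 15 of 31 and 0 of 2 for MYO5B(G519R), and 16 of 27 and 3 of 5 for treated MYO5BΔIEC. The share of all genes that kept their call was not computed. Among the members called, the CPM ranges of the groups did not overlap in 6 lower and 3 higher members of the first comparison, 15 and 2 of the next and 12 and 4 of the last, beside 10.9% and 11%, 10.8% and 11.4%, and 10% and 12.6% of all genes tested. Where a named call was also lost under a setting that keeps all cultures, that setting is given beside it: size factors from DESeq2 instead of TMM, no filter on low counts, 1 fit of all groups, the culture number as a block (the replicate block), a covariate for donor sex, limma on FPKM values with a pseudocount of 1 or 0.1, or removal of each library's trend of counts on gene length (the length trend).

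**Figure D1:**
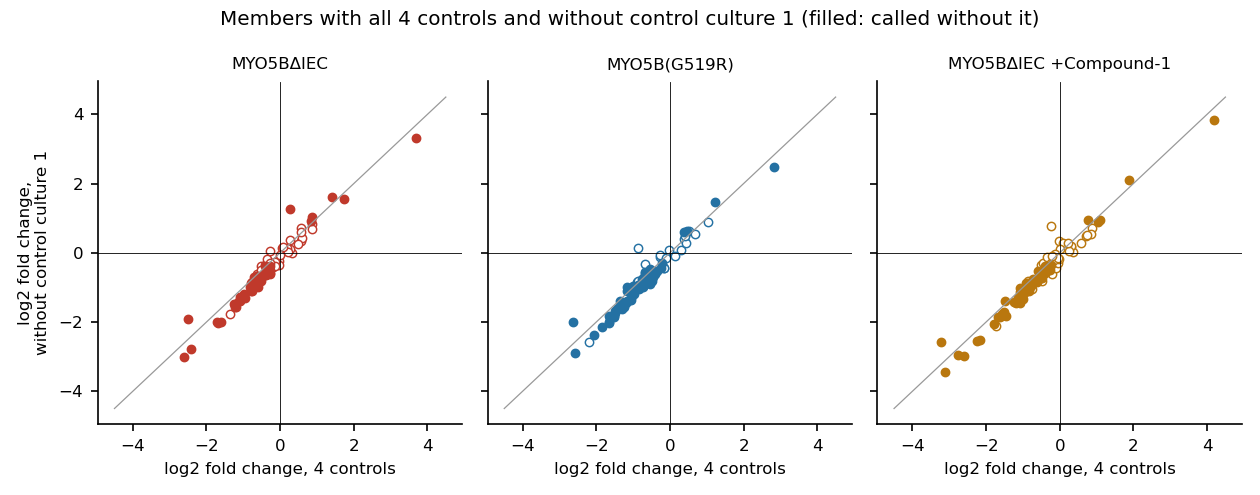
Log2 fold change of each tested member against control with all 4 control cultures (x axis) and without control culture 1 (y axis), in a panel for each MYO5B-altered group; filled points are members called without that culture. The lower members called rise from 17 to 44, from 31 to 57 and from 27 to 46.

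Summed over its members, each family can be followed without regard to how reads were split between close copies. The Cyp2 sum spanned 1833 to 3402 CPM in control, 1557 to 2571 in untreated and 1713 to 2027 in Compound-1-treated MYO5BΔIEC, and 1309 to 1737 in MYO5B(G519R) cultures. The Ugt sum spanned 1323 to 1731 CPM in control, 991 to 1586 in untreated and 1049 to 1161 in Compound-1-treated MYO5BΔIEC, and 804 to 1066 in MYO5B(G519R) cultures. Control culture 1 had the lowest control sum in all 6 families, and without it the control ranges of the Cyp2 and Ugt sums begin at 3002 and 1611 CPM, above every MYO5B-altered culture. Cyp3a, Ces, Gst and Sult sums overlapped between control and all other groups. The log2 ratio of the group means to control was -0.51, -0.92 and -0.61 for Cyp2, -0.42, -0.78 and -0.51 for Ugt, and -0.43, -0.53 and 0.04 for Gst, in the same order of groups. For Cyp3a it was 0.20, -0.06 and 0.30, for Ces -0.12, -0.43 and -0.22, and for Sult -0.10, -0.55 and -0.21. No test was made of these sums.

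**Figure D2:**
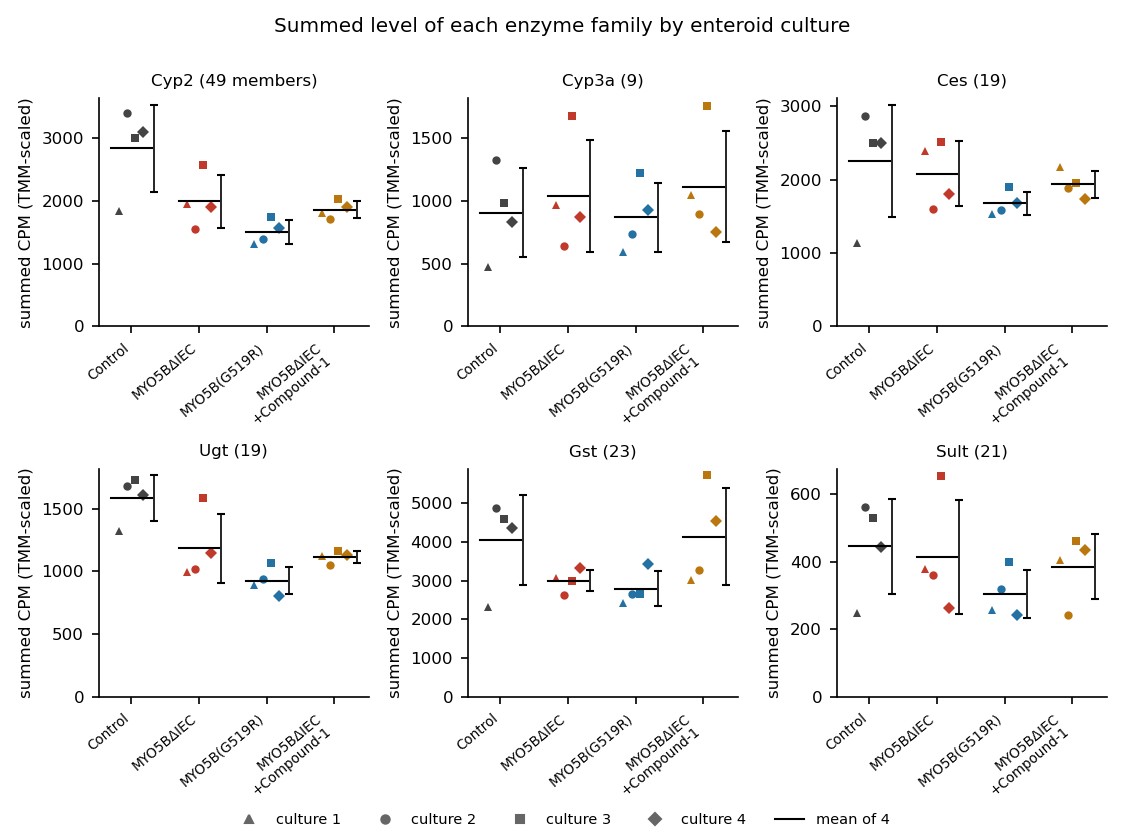
Summed level of each family in CPM (y axis) for each of the 16 cultures, grouped by condition; points are cultures, the line is the mean of 4 and the bar its SD. Control culture 1 is the lowest control in all 6 panels, and the Cyp2 and Ugt sums of the other controls lie above all MYO5B-altered cultures.

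Among the Cyp2 genes, the genes called lower by edgeR were mostly Cyp2b10 and Cyp2c genes, and it called no Cyp2d or Cyp2j gene. All 4 tested Cyp2j genes lay below 0 in MYO5B(G519R), with a median of -0.78, and DESeq2 called 1 there. DESeq2 also called 1 Cyp2d gene in MYO5BΔIEC. Of 24 Cyp2 genes tested, 3 (12.5%) were lower and 1 higher in MYO5BΔIEC, where 13.8% of all genes were lower, and 9 (37.5%) were lower and 0 higher in MYO5B(G519R), where 13.7% were. With Compound-1 5 of 25 (20%) were lower than control, where 13.7% of all genes were. All of the tested Cyp2c genes lay below 0, 9 of 9, 9 of 9 and 10 of 10, with 2, 6 and 3 past the threshold. Cyp2b10 (ENSMUSG00000030483, chr7:25897620-25926624), the classic CAR target that oxidises phenobarbital-type drugs, was the only one of 5 Cyp2b genes to pass the count filter. Cyp2b10 was at 131, 308, 278 and 347 CPM in control cultures 1 to 4, at 128, 74.9, 120.1 and 122 in MYO5BΔIEC cultures, at 80.6, 80.8, 92.4 and 154 in MYO5B(G519R) cultures and at 74.5, 88.3, 109 and 89.1 in Compound-1-treated MYO5BΔIEC cultures. Its control range lay wholly above those of the MYO5BΔIEC and Compound-1-treated cultures. It overlapped that of the MYO5B(G519R) cultures, where only culture 4, at 154 CPM, lay above control culture 1, at 131 CPM. Cyp2b10 had log2 fold changes of -1.26 ± 0.28 (SE, adjusted p = 0.00931) in MYO5BΔIEC, -1.39 ± 0.31 (SE, adjusted p = 0.0105) in MYO5B(G519R) and -1.56 ± 0.27 (SE, adjusted p = 0.00489) in Compound-1-treated enteroids relative to control. Cyp2b10 stayed past the threshold in MYO5BΔIEC, MYO5B(G519R) and treated enteroids whichever culture was left out, with adjusted p no higher than 0.0333, 0.0377 and 0.0209.

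The CYP2C enzymes oxidise many drugs and also arachidonic acid. Cyp2c65 was at 224, 394, 399.9 and 377 CPM in control cultures, at 223, 188, 296 and 222 in MYO5BΔIEC cultures, at 163, 187, 226 and 181 in MYO5B(G519R) cultures and at 243, 204, 313 and 318 in Compound-1-treated MYO5BΔIEC cultures. Cyp2c65, the most abundant Cyp2 gene per length in control, had a control range that overlapped those of all 3 MYO5B-altered groups. Cyp2c65 had log2 fold changes of -0.58 ± 0.21 (SE, adjusted p = 0.06499) in MYO5BΔIEC, -0.88 ± 0.19 (SE, adjusted p = 0.01003) in MYO5B(G519R) and -0.37 ± 0.22 (SE, adjusted p = 0.236) in Compound-1-treated enteroids relative to control. Cyp2c65 stayed past the threshold in MYO5B(G519R) enteroids whichever culture was left out, with adjusted p no higher than 0.0361. For Cyp2c65, the MYO5BΔIEC difference passed without any 1 of control culture 1 and MYO5BΔIEC culture 3, with adjusted p down to 0.00231, and the treated difference passed without control culture 1, with adjusted p down to 0.0345. Cyp2c29 was at 146, 628, 407 and 479 CPM in control cultures, at 162, 118, 212 and 278 in MYO5BΔIEC cultures, at 80.5, 76.4, 157 and 224 in MYO5B(G519R) cultures and at 125, 239, 310.2 and 148 in Compound-1-treated MYO5BΔIEC cultures. Control culture 1 was again low for Cyp2c29, whose control range overlapped those of all 3 MYO5B-altered groups. Cyp2c29 had log2 fold changes of -1.10 ± 0.39 (SE, adjusted p = 0.0581) in MYO5BΔIEC, -1.63 ± 0.46 (SE, adjusted p = 0.027) in MYO5B(G519R) and -1.01 ± 0.41 (SE, adjusted p = 0.0889) in Compound-1-treated enteroids relative to control. For Cyp2c29, the MYO5BΔIEC difference passed without any 1 of control culture 1 and MYO5BΔIEC culture 4, with adjusted p down to 0.00136, and the MYO5B(G519R) call was lost without any 1 of control cultures 2, 3 and 4 and MYO5B(G519R) cultures 1, 2 and 3, with adjusted p up to 0.0746, and the treated difference passed without control culture 1, with adjusted p down to 0.00789.

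Cyp2c66, Cyp2c68 and Cyp2c55 were singled out after their values were seen. Cyp2c66 was at 191, 389, 396 and 402 CPM in control cultures, at 160.2, 127, 203 and 158 in MYO5BΔIEC cultures, at 119, 125, 136 and 136 in MYO5B(G519R) cultures and at 147, 132, 186 and 179 in Compound-1-treated MYO5BΔIEC cultures. Its control range lay wholly above those of the MYO5B(G519R) and Compound-1-treated cultures and overlapped that of the MYO5BΔIEC cultures. Cyp2c66 had log2 fold changes of -1.08 ± 0.24 (SE, adjusted p = 0.00917) in MYO5BΔIEC, -1.42 ± 0.22 (SE, adjusted p = 0.00298) in MYO5B(G519R) and -1.10 ± 0.24 (SE, adjusted p = 0.00955) in Compound-1-treated enteroids relative to control. Cyp2c66 stayed past the threshold in MYO5BΔIEC, MYO5B(G519R) and treated enteroids whichever culture was left out, with adjusted p no higher than 0.0361, 0.01397 and 0.0333. Cyp2c68, whose promoter window is printed above, spanned 42.9 to 106 CPM in control, 26.3 to 57.8 in untreated and 28.2 to 32.9 in Compound-1-treated MYO5BΔIEC, and 26.01 to 35.7 in MYO5B(G519R) cultures. Cyp2c68 had log2 fold changes of -1.06 ± 0.30 (SE, adjusted p = 0.0229) in MYO5BΔIEC, -1.50 ± 0.26 (SE, adjusted p = 0.00414) in MYO5B(G519R) and -1.52 ± 0.25 (SE, adjusted p = 0.004402) in Compound-1-treated enteroids relative to control. Cyp2c68 stayed past the threshold in MYO5B(G519R) and treated enteroids whichever culture was left out, with adjusted p no higher than 0.01802 and 0.0202. For Cyp2c68, the MYO5BΔIEC call was lost without any 1 of control cultures 2, 3 and 4 and MYO5BΔIEC cultures 1 and 2, with adjusted p up to 0.0692. For Cyp2c55 control culture 1 was not low. Cyp2c55 was at 418, 274, 323 and 331 CPM in control cultures, at 199, 200.1, 323 and 220.1 in MYO5BΔIEC cultures, at 139.9, 157, 180.1 and 128 in MYO5B(G519R) cultures and at 189, 212, 279.9 and 273 in Compound-1-treated MYO5BΔIEC cultures. Cyp2c55 had log2 fold changes of -0.51 ± 0.20 (SE, adjusted p = 0.0756) in MYO5BΔIEC, -1.15 ± 0.16 (SE, adjusted p = 0.00222) in MYO5B(G519R) and -0.50 ± 0.19 (SE, adjusted p = 0.0702) in Compound-1-treated enteroids relative to control. Cyp2c55 stayed past the threshold in MYO5B(G519R) enteroids whichever culture was left out, with adjusted p no higher than 0.0115. For Cyp2c55, the MYO5BΔIEC difference passed without MYO5BΔIEC culture 3, with adjusted p down to 0.0214. The 14 Cyp2c members of chr19:39007019-40187333 stand beside each other, 9 of them passed the count filter, and those called there were lower.

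Of the remaining named Cyp2 genes, Cyp2d26 was not called, Cyp2w1 was called higher in MYO5BΔIEC and Cyp2u1 was called lower in MYO5B(G519R) and treated enteroids. Cyp2d26, of the CYP2D subfamily, spanned 176 to 352 CPM in control, 274 to 438 in untreated and 213 to 295 in Compound-1-treated MYO5BΔIEC, and 179 to 309 in MYO5B(G519R) cultures, and its log2 fold change was 0.27 ± 0.23 (SE, adjusted p = 0.4298) in MYO5BΔIEC and -0.21 ± 0.23 (SE, adjusted p = 0.533) in MYO5B(G519R). Cyp2w1, an orphan P450 known from fetal gut and colon tumours, was low throughout. Cyp2w1 was at 2.95, 3.19, 1.99 and 2.19 CPM in control cultures, at 3.296, 5.97, 4.71 and 4.505 in MYO5BΔIEC cultures, at 3.67, 3.64, 4.43 and 3.08 in MYO5B(G519R) cultures and at 3.08, 3.195, 2.01 and 2.11 in Compound-1-treated MYO5BΔIEC cultures. Its MYO5BΔIEC cultures all lay above the control range. Cyp2w1 had log2 fold changes of 0.85 ± 0.26 (SE, adjusted p = 0.0346) in MYO5BΔIEC, 0.52 ± 0.23 (SE, adjusted p = 0.119) in MYO5B(G519R) and 0.010 ± 0.28 (SE, adjusted p = 0.982) in Compound-1-treated enteroids relative to control. For Cyp2w1, the MYO5BΔIEC call was lost without any 1 of control cultures 3 and 4 and MYO5BΔIEC cultures 2, 3 and 4, with adjusted p up to 0.112. Cyp2w1 in MYO5BΔIEC enteroids also missed the threshold with no count filter and the replicate block (adjusted p = 0.0576 to 0.0669). Cyp2u1, a hydroxylase of long-chain fatty acids, was lowest in Compound-1-treated enteroids. Cyp2u1 was at 8.84, 7.95, 6.06 and 8.52 CPM in control cultures, at 6.47, 4.08, 7.05 and 5.77 in MYO5BΔIEC cultures, at 5.495, 4.06, 4.43 and 5.67 in MYO5B(G519R) cultures and at 4.02, 3.41, 1.87 and 1.88 in Compound-1-treated MYO5BΔIEC cultures. Cyp2u1 had log2 fold changes of -0.42 ± 0.22 (SE, adjusted p = 0.178) in MYO5BΔIEC, -0.67 ± 0.19 (SE, adjusted p = 0.0267) in MYO5B(G519R) and -1.49 ± 0.30 (SE, adjusted p = 0.00719) in Compound-1-treated enteroids relative to control. Cyp2u1 stayed past the threshold in treated enteroids whichever culture was left out, with adjusted p no higher than 0.0265. For Cyp2u1, the MYO5B(G519R) call was lost without any 1 of control cultures 2 and 4 and MYO5B(G519R) cultures 2 and 3, with adjusted p up to 0.0825. Cyp2u1 in MYO5B(G519R) enteroids also missed the threshold with all 4 groups in 1 fit (adjusted p = 0.0619). Of the 24 Cyp2 genes that did not pass the count filter, 12 were at 0 in every library, including members of the Cyp2a and Cyp2b subfamilies.

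In the Cyp3a family the tested genes of the cluster lay below control, and Cyp3a13, apart from it on the same chromosome, lay above. Cyp3a13 was called only in treated enteroids. CYP3A enzymes oxidise a large share of oral drugs, and Cyp3a11 is the best known PXR target of the mouse. Cyp3a25, Cyp3a59 and Cyp3a11 lie within chr5:145345279-146113287 with 5 other members, while Cyp3a13 lies apart at chr5:137892932-137921619. Cyp3a25 was at 107, 291, 217 and 214 CPM in control cultures, at 114, 70.4, 160.3 and 76.4 in MYO5BΔIEC cultures, at 59.7, 65.4, 80.9 and 57.4 in MYO5B(G519R) cultures and at 84.5, 64.7, 57.7 and 54.4 in Compound-1-treated MYO5BΔIEC cultures. Outside control culture 1, every control lay above every MYO5B-altered culture. Cyp3a25 had log2 fold changes of -0.97 ± 0.32 (SE, adjusted p = 0.0453) in MYO5BΔIEC, -1.65 ± 0.26 (SE, adjusted p = 0.00317) in MYO5B(G519R) and -1.66 ± 0.28 (SE, adjusted p = 0.00447) in Compound-1-treated enteroids relative to control. Cyp3a25 stayed past the threshold in MYO5B(G519R) and treated enteroids whichever culture was left out, with adjusted p no higher than 0.0145 and 0.0202. For Cyp3a25, the MYO5BΔIEC call was lost without any 1 of control cultures 2, 3 and 4 and MYO5BΔIEC cultures 1, 2 and 4, with adjusted p up to 0.127. Cyp3a25 in MYO5BΔIEC enteroids also missed the threshold with the replicate block, a covariate for donor sex, limma on log2(FPKM + 1), limma on log2(FPKM + 0.1) and the length trend removed (adjusted p = 0.0552 to 0.0843). Cyp3a11 was at 113, 428, 307 and 243 CPM in control cultures, at 156, 119, 236 and 150.4 in MYO5BΔIEC cultures, at 78.7, 89.9, 166 and 148 in MYO5B(G519R) cultures and at 135, 118, 291 and 166 in Compound-1-treated MYO5BΔIEC cultures. The control range of Cyp3a11 overlapped those of all 3 MYO5B-altered groups. Cyp3a11 had log2 fold changes of -0.72 ± 0.35 (SE, adjusted p = 0.149) in MYO5BΔIEC, -1.17 ± 0.38 (SE, adjusted p = 0.0441) in MYO5B(G519R) and -0.62 ± 0.39 (SE, adjusted p = 0.255) in Compound-1-treated enteroids relative to control. For Cyp3a11, the MYO5BΔIEC difference passed without control culture 1, with adjusted p down to 0.00682, and the MYO5B(G519R) call was lost without any 1 of control cultures 2, 3 and 4 and MYO5B(G519R) cultures 1, 2, 3 and 4, with adjusted p up to 0.122, and the treated difference passed without control culture 1, with adjusted p down to 0.0484. Cyp3a11 in MYO5B(G519R) enteroids also missed the threshold with a covariate for donor sex, limma on log2(FPKM + 1) and limma on log2(FPKM + 0.1) (adjusted p = 0.0546 to 0.0862).

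Cyp3a59 was low everywhere but separated the groups fully. Cyp3a59 was at 4.58, 1.36, 1.54 and 1.52 CPM in control cultures, at 0.2397, 0.3597, 0.354 and 0.601 in MYO5BΔIEC cultures, at 0.597, 0.385, 0.218 and 0.241 in MYO5B(G519R) cultures and at 0.335, 0.157, 0.0982 and 0.371 in Compound-1-treated MYO5BΔIEC cultures. Here control culture 1 was the highest control, and the control range lay wholly above those of all 3 MYO5B-altered groups. Cyp3a59 had log2 fold changes of -2.51 ± 0.49 (SE, adjusted p = 0.00524) in MYO5BΔIEC, -2.64 ± 0.52 (SE, adjusted p = 0.00633) in MYO5B(G519R) and -3.22 ± 0.58 (SE, adjusted p = 0.0052) in Compound-1-treated enteroids relative to control. Cyp3a59 stayed past the threshold in MYO5BΔIEC, MYO5B(G519R) and treated enteroids whichever culture was left out, with adjusted p no higher than 0.0221, 0.0232 and 0.02002. Cyp3a13, the leading Cyp3a gene per length, went the other way. Cyp3a13 was at 251, 608, 462 and 374 CPM in control cultures, at 696, 454, 1284 and 643 in MYO5BΔIEC cultures, at 454, 579, 980.4 and 723 in MYO5B(G519R) cultures and at 827, 712, 1407 and 535 in Compound-1-treated MYO5BΔIEC cultures. Control culture 1 was the lowest of all, and the control range overlapped those of all 3 MYO5B-altered groups. Cyp3a13 had log2 fold changes of 0.86 ± 0.34 (SE, adjusted p = 0.07903) in MYO5BΔIEC, 0.69 ± 0.30 (SE, adjusted p = 0.111) in MYO5B(G519R) and 1.04 ± 0.33 (SE, adjusted p = 0.03899) in Compound-1-treated enteroids relative to control. For Cyp3a13, the treated call was lost without any 1 of control cultures 3 and 4 and Compound-1-treated cultures 1 and 3, with adjusted p up to 0.116. Cyp3a13 in treated enteroids also missed the threshold with a covariate for donor sex, limma on log2(FPKM + 1) and limma on log2(FPKM + 0.1) (adjusted p = 0.0507 to 0.0893). In mean FPKM Cyp3a13 was at 139 in control, 258 in MYO5BΔIEC and 230 with the G519R allele, and in those 2 MYO5B-altered groups it ranked among the 8 most abundant members.

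**Figure D3:**
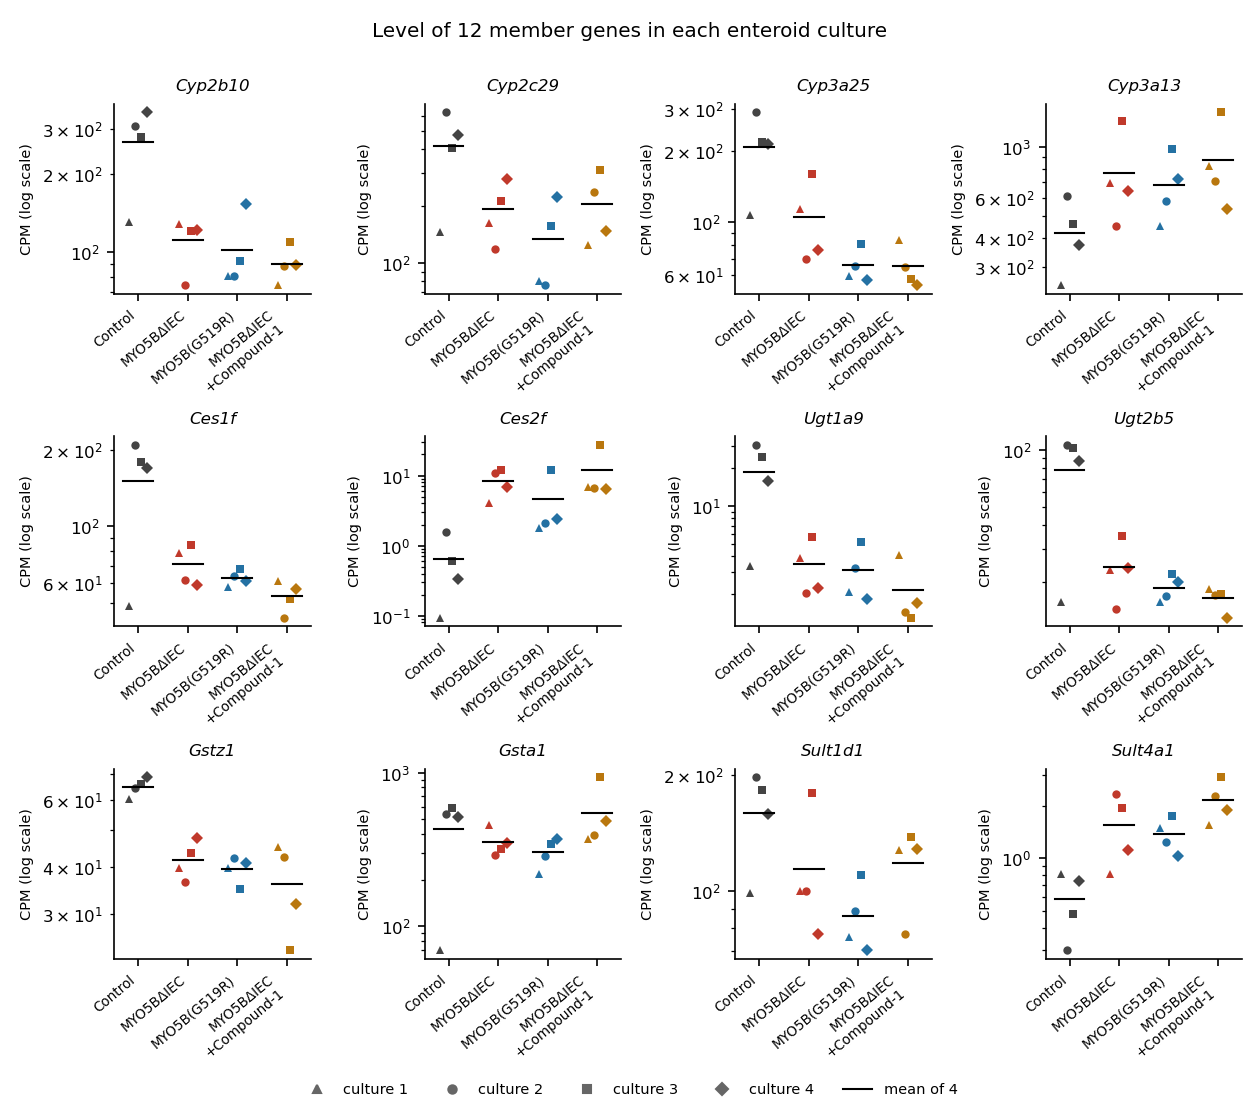
Level of 12 members in CPM (y axis, log scale) in each of the 16 cultures by condition; each point is a culture. The mean levels of Cyp2b10, Ugt1a9 and Gstz1 are lower in each MYO5B-altered group, and those of Ces2f and Sult4a1 are higher. The control range overlaps that of a MYO5B-altered group for Cyp2b10, Ugt1a9, Sult4a1 and Cyp3a13, and of none for Gstz1 and Ces2f.

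The called carboxylesterases mostly divided by cluster. Called Ces1 genes, which together with Ces5a occupy chr8:93020214-93535830, fell, while called Ces2 genes, which lie with Ces3 and Ces4 genes at chr8:104734003-105150109, mostly rose. All 6 tested Ces1 genes lay below 0 in each comparison against control, with 2, 4 and 5 past the threshold and medians of -1.07, -1.35 and -1.51. Of 7 Ces2 genes, 3, 1 and 2 were higher and 0, 1 and 0 lower, with medians of 0.58, 0.30 and 0.71. In each comparison 3 of the 7 lay below 0, and so did Ces3a. Over all genes 13.8%, 13.7% and 13.7% were lower and 13.5%, 13.1% and 15.7% higher. The Ces1 sum spanned 83.3 to 302 CPM in control, 79.9 to 139 in untreated and 64.8 to 82.6 in Compound-1-treated MYO5BΔIEC, and 84.3 to 99.2 in MYO5B(G519R) cultures. The Ces2 sum spanned 1057 to 2569 CPM in control, 1506 to 2377 in untreated and 1651 to 2088 in Compound-1-treated MYO5BΔIEC, and 1440 to 1792 in MYO5B(G519R) cultures, so all groups overlapped. Of the mean Ces2 sum over all cultures, 93.6% came from Ces2e, Ces2a and Ces2c. Ces2c was not called and spanned 164 to 497 CPM in control and 383 to 490.1 in MYO5B(G519R) cultures. In MYO5BΔIEC cultures Ces2c spanned 332 to 703 CPM untreated and 447 to 726 CPM with Compound-1. The Ces2 genes called higher, Ces2b, Ces2f and Ces2g, were less abundant.

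CES1 enzymes hydrolyse drug esters and lipid esters. Ces1e was at 8.09, 22.01, 23.6 and 26.2 CPM in control cultures, at 7.43, 8.24, 10.1 and 8.32 in MYO5BΔIEC cultures, at 10.6, 10.4, 8.76 and 11.2 in MYO5B(G519R) cultures and at 7.07, 7.8, 9.21 and 10.7 in Compound-1-treated MYO5BΔIEC cultures. Control cultures 2 to 4 lay above every MYO5B-altered culture and control culture 1 within them. Ces1e had log2 fold changes of -1.22 ± 0.31 (SE, adjusted p = 0.0155) in MYO5BΔIEC, -0.96 ± 0.30 (SE, adjusted p = 0.0417) in MYO5B(G519R) and -1.20 ± 0.32 (SE, adjusted p = 0.0203) in Compound-1-treated enteroids relative to control. For Ces1e, the MYO5BΔIEC call was lost without control culture 4, with adjusted p up to 0.0515, and the MYO5B(G519R) call was lost without any 1 of control cultures 2, 3 and 4 and MYO5B(G519R) cultures 1, 2, 3 and 4, with adjusted p up to 0.115, and the treated call was lost without any 1 of control cultures 2, 3 and 4 and Compound-1-treated culture 1, with adjusted p up to 0.0645. Ces1e in MYO5B(G519R) enteroids also missed the threshold with the replicate block, limma on log2(FPKM + 1) and limma on log2(FPKM + 0.1) (adjusted p = 0.0787 to 0.106). Ces1e in treated enteroids also missed the threshold with limma on log2(FPKM + 1) (adjusted p = 0.0503). Ces1g was at 2.101, 9.04, 5.64 and 5.74 CPM in control cultures, at 1.35, 3.298, 3.75 and 2.43 in MYO5BΔIEC cultures, at 2.06, 1.72, 2.64 and 1.54 in MYO5B(G519R) cultures and at 2.15, 3.04, 1.596 and 1.08 in Compound-1-treated MYO5BΔIEC cultures. Ces1g, an esterase studied for its part in lipid handling, had a control range that overlapped those of all 3 MYO5B-altered groups. Ces1g had log2 fold changes of -1.05 ± 0.43 (SE, adjusted p = 0.0916) in MYO5BΔIEC, -1.50 ± 0.39 (SE, adjusted p = 0.01997) in MYO5B(G519R) and -1.52 ± 0.45 (SE, adjusted p = 0.0282) in Compound-1-treated enteroids relative to control. For Ces1g, the MYO5BΔIEC difference passed without control culture 1, with adjusted p down to 0.00803, and the MYO5B(G519R) call was lost without any 1 of control culture 2 and MYO5B(G519R) cultures 1, 2 and 4, with adjusted p up to 0.05998, and the treated call was lost without any 1 of control cultures 2, 3 and 4 and Compound-1-treated cultures 1, 3 and 4, with adjusted p up to 0.0877. Ces1d, Ces1f and Ces1b were singled out after their values were seen. Ces1d was at 21.6, 54.4, 46.6 and 54.7 CPM in control cultures, at 16.9, 22.6, 38.9 and 6.97 in MYO5BΔIEC cultures, at 20.01, 21.3, 17.6 and 6.94 in MYO5B(G519R) cultures and at 11.4, 5.61, 2.897 and 6.42 in Compound-1-treated MYO5BΔIEC cultures. Ces1d, known as triacylglycerol hydrolase, had its lowest mean in the Compound-1-treated cultures. Ces1d had log2 fold changes of -1.05 ± 0.45 (SE, adjusted p = 0.103) in MYO5BΔIEC, -1.43 ± 0.37 (SE, adjusted p = 0.0192) in MYO5B(G519R) and -2.75 ± 0.42 (SE, adjusted p = 0.00398) in Compound-1-treated enteroids relative to control. Ces1d stayed past the threshold in treated enteroids whichever culture was left out, with adjusted p no higher than 0.0199. For Ces1d, the MYO5BΔIEC difference passed without any 1 of control culture 1 and MYO5BΔIEC culture 3, with adjusted p down to 0.0261, and the MYO5B(G519R) call was lost without any 1 of control cultures 2 and 4 and MYO5B(G519R) culture 3, with adjusted p up to 0.0539.

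Ces1f spanned 48.2 to 210.3 CPM in control, 58.7 to 84.6 in untreated and 43.6 to 61.1 in Compound-1-treated MYO5BΔIEC, and 57.7 to 67.7 in MYO5B(G519R) cultures. Its control culture 1 was at 48.2 CPM and the other controls at 170 to 210 CPM. Ces1f had log2 fold changes of -1.10 ± 0.36 (SE, adjusted p = 0.04405) in MYO5BΔIEC, -1.28 ± 0.35 (SE, adjusted p = 0.0253) in MYO5B(G519R) and -1.51 ± 0.36 (SE, adjusted p = 0.0128) in Compound-1-treated enteroids relative to control. Ces1f stayed past the threshold in treated enteroids whichever culture was left out, with adjusted p no higher than 0.0395. For Ces1f, the MYO5BΔIEC call was lost without any 1 of control cultures 2, 3 and 4 and MYO5BΔIEC cultures 1, 2, 3 and 4, with adjusted p up to 0.118, and the MYO5B(G519R) call was lost without any 1 of control cultures 2, 3 and 4 and MYO5B(G519R) cultures 1, 2, 3 and 4, with adjusted p up to 0.07104. Ces1b was near the counting floor in control culture 1, at 0.125 CPM, and at 4.39 to 6.67 CPM in the other controls. Ces1b had log2 fold changes of -2.61 ± 0.90 (SE, adjusted p = 0.0517) in MYO5BΔIEC, -1.66 ± 0.78 (SE, adjusted p = 0.141) in MYO5B(G519R) and -2.61 ± 0.81 (SE, adjusted p = 0.0339) in Compound-1-treated enteroids relative to control. For Ces1b, the MYO5BΔIEC difference passed without control culture 1, with adjusted p down to 0.00108, and the MYO5B(G519R) difference passed without control culture 1, with adjusted p down to 7.90e-04, and the treated call was lost without any 1 of control cultures 2, 3 and 4 and Compound-1-treated cultures 1, 3 and 4, with adjusted p up to 0.0938.

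CES2 enzymes prefer substrates with a large alcohol and a small acyl group, such as the prodrug irinotecan, and are known from the small intestine. Ces2a was at 414, 1030, 838 and 976 CPM in control cultures, at 739, 312, 545 and 504 in MYO5BΔIEC cultures, at 410.1, 404, 430.4 and 563 in MYO5B(G519R) cultures and at 594, 557, 726 and 657 in Compound-1-treated MYO5BΔIEC cultures. The control range of Ces2a overlapped those of all 3 MYO5B-altered groups. Ces2a had log2 fold changes of -0.63 ± 0.31 (SE, adjusted p = 0.158) in MYO5BΔIEC, -0.85 ± 0.26 (SE, adjusted p = 0.0376) in MYO5B(G519R) and -0.36 ± 0.26 (SE, adjusted p = 0.323) in Compound-1-treated enteroids relative to control. For Ces2a, the MYO5BΔIEC difference passed without control culture 1, with adjusted p down to 0.0134, and the MYO5B(G519R) call was lost without any 1 of control cultures 2, 3 and 4 and MYO5B(G519R) cultures 1, 2 and 3, with adjusted p up to 0.101, and the treated difference passed without control culture 1, with adjusted p down to 0.0121. Ces2a in MYO5B(G519R) enteroids also missed the threshold with limma on log2(FPKM + 1) and limma on log2(FPKM + 0.1) (adjusted p = 0.0838 to 0.0851). Ces2e was at 396, 956, 920.4 and 884 CPM in control cultures, at 713, 707, 1027 and 642 in MYO5BΔIEC cultures, at 554, 584, 705 and 523 in MYO5B(G519R) cultures and at 633, 669.8, 385 and 402 in Compound-1-treated MYO5BΔIEC cultures. Control cultures 2 to 4 lay above every MYO5B(G519R) and treated culture for Ces2e, while control culture 1 lay below all but 1 of these. Ces2e had log2 fold changes of -0.026 ± 0.27 (SE, adjusted p = 0.958) in MYO5BΔIEC, -0.41 ± 0.26 (SE, adjusted p = 0.257) in MYO5B(G519R) and -0.59 ± 0.30 (SE, adjusted p = 0.156) in Compound-1-treated enteroids relative to control. None of the 3 differences passed the threshold, and the 95% confidence interval of the log2 fold change was -0.56 to 0.51 in MYO5BΔIEC enteroids.

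Ces2f (ENSMUSG00000062826, chr8:104947356-104960047) rose most of all named members. Ces2f was at 0.0941, 1.56, 0.609 and 0.334 CPM in control cultures, at 4.07, 10.97, 12 and 6.82 in MYO5BΔIEC cultures, at 1.76, 2.102, 12.1 and 2.38 in MYO5B(G519R) cultures and at 6.905, 6.704, 27.5 and 6.36 in Compound-1-treated MYO5BΔIEC cultures. The control range lay wholly below those of all 3 MYO5B-altered groups, and control culture 1 held only 3 counts, so the size of the fold is poorly known. Ces2f had log2 fold changes of 3.70 ± 0.65 (SE, adjusted p = 0.00335) in MYO5BΔIEC, 2.81 ± 0.84 (SE, adjusted p = 0.034) in MYO5B(G519R) and 4.18 ± 0.77 (SE, adjusted p = 0.00566) in Compound-1-treated enteroids relative to control. Ces2f stayed past the threshold in MYO5BΔIEC and treated enteroids whichever culture was left out, with adjusted p no higher than 0.0153 and 0.0242. For Ces2f, the MYO5B(G519R) call was lost without any 1 of control cultures 3 and 4 and MYO5B(G519R) culture 3, with adjusted p up to 0.124. Ces2f in MYO5B(G519R) enteroids also missed the threshold with limma on log2(FPKM + 1) (adjusted p = 0.115). Without control culture 1 the log2 fold changes were 3.33, 2.47 and 3.84. Ces2b and Ces2g were singled out after their values were seen. Ces2b was at 7.78, 20.2, 13.3 and 9.45 CPM in control cultures, at 61.8, 29.2, 56.05 and 22.5 in MYO5BΔIEC cultures, at 19.5, 27.4, 41.6 and 14.99 in MYO5B(G519R) cultures and at 49.6, 18.6, 12.2 and 11.99 in Compound-1-treated MYO5BΔIEC cultures. All MYO5BΔIEC cultures exceeded all controls. Ces2b had log2 fold changes of 1.74 ± 0.38 (SE, adjusted p = 0.00768) in MYO5BΔIEC, 1.03 ± 0.36 (SE, adjusted p = 0.0599) in MYO5B(G519R) and 0.86 ± 0.47 (SE, adjusted p = 0.191) in Compound-1-treated enteroids relative to control. Ces2b stayed past the threshold in MYO5BΔIEC enteroids whichever culture was left out, with adjusted p no higher than 0.0284. For Ces2b, the MYO5B(G519R) difference passed without any 1 of control culture 2 and MYO5B(G519R) culture 4, with adjusted p down to 0.0318. Ces2g spanned 41.1 to 74.9 CPM in control, 61.9 to 133 in untreated and 78.9 to 114 in Compound-1-treated MYO5BΔIEC, and 61.5 to 113 in MYO5B(G519R) cultures. Ces2g had log2 fold changes of 0.88 ± 0.24 (SE, adjusted p = 0.0225) in MYO5BΔIEC, 0.45 ± 0.23 (SE, adjusted p = 0.168) in MYO5B(G519R) and 0.77 ± 0.20 (SE, adjusted p = 0.0173) in Compound-1-treated enteroids relative to control. For Ces2g, the MYO5BΔIEC call was lost without any 1 of control cultures 3 and 4 and MYO5BΔIEC cultures 2 and 3, with adjusted p up to 0.0672, and the MYO5B(G519R) difference passed without control culture 1, with adjusted p down to 0.0293, and the treated call was lost without any 1 of control cultures 3 and 4, with adjusted p up to 0.05804.

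**Figure D4:**
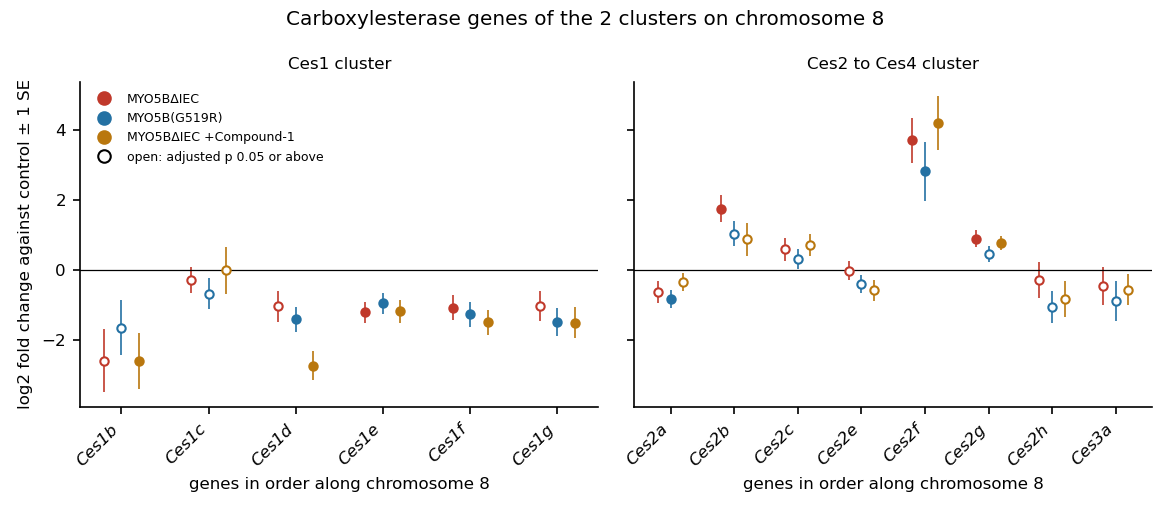
Log2 fold change against control (y axis, bars ± 1 SE) of the carboxylesterase genes that passed the count filter, in chromosomal order along chr8, for each MYO5B-altered group. The tested Ces1 genes all lie below 0, whereas Ces2b, Ces2f and Ces2g lie above 0 and Ces2a below.

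The Ugt genes that were called were all lower. Of 15 tested, 5, 9 and 7 were lower in the 3 comparisons against control and none was higher, while 14, 15 and 15 lay below 0. Their medians were -0.70, -1.16 and -1.07. Over all genes 13.8%, 13.7% and 13.7% were lower, and 50.6%, 53.3% and 52.5% lay below 0. All Ugt1a genes share their last exons, so 8 of the 15 have under 50% of their 100-base stretches to themselves and counts could be split between them or lost in counting. The Ugt1a members are therefore uncertain one by one. Ugt2b34, Ugt2b35, Ugt2b36 and Ugt2a3 do not share those exons.

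UGT2B enzymes conjugate steroids, bile acids and many drugs. Ugt2b34 was at 868, 919.7, 1006 and 849 CPM in control cultures, at 583, 664, 1082 and 691 in MYO5BΔIEC cultures, at 542, 574, 679 and 437 in MYO5B(G519R) cultures and at 720.4, 622, 723 and 708 in Compound-1-treated MYO5BΔIEC cultures. Ugt2b34 was the most abundant Ugt gene per length, and its control range lay wholly above those of the MYO5B(G519R) and Compound-1-treated cultures and overlapped that of the MYO5BΔIEC cultures. Ugt2b34 had log2 fold changes of -0.27 ± 0.20 (SE, adjusted p = 0.359) in MYO5BΔIEC, -0.71 ± 0.16 (SE, adjusted p = 0.009902) in MYO5B(G519R) and -0.39 ± 0.15 (SE, adjusted p = 0.06702) in Compound-1-treated enteroids relative to control. Ugt2b34 stayed past the threshold in MYO5B(G519R) enteroids whichever culture was left out, with adjusted p no higher than 0.0362. For Ugt2b34, the MYO5BΔIEC difference passed without MYO5BΔIEC culture 3, with adjusted p down to 0.0495, and the treated difference passed without control culture 1, with adjusted p down to 0.0354. Ugt2b35 was at 179.7, 203, 212 and 209.7 CPM in control cultures, at 97.9, 120.5, 157 and 142 in MYO5BΔIEC cultures, at 120.0, 130.1, 119.9 and 109.6 in MYO5B(G519R) cultures and at 126, 128, 118 and 116 in Compound-1-treated MYO5BΔIEC cultures. For Ugt2b35 control culture 1 was near the other controls, and the control range lay wholly above those of all 3 MYO5B-altered groups. Ugt2b35 had log2 fold changes of -0.63 ± 0.16 (SE, adjusted p = 0.0151) in MYO5BΔIEC, -0.75 ± 0.11 (SE, adjusted p = 0.00225) in MYO5B(G519R) and -0.72 ± 0.13 (SE, adjusted p = 0.00499) in Compound-1-treated enteroids relative to control. Ugt2b35 stayed past the threshold in MYO5B(G519R) and treated enteroids whichever culture was left out, with adjusted p no higher than 0.0126 and 0.0239. For Ugt2b35, the MYO5BΔIEC call was lost without any 1 of control culture 3 and MYO5BΔIEC culture 2, with adjusted p up to 0.0527.

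Ugt2b36 and Ugt2b5 were singled out after their values were seen, and both had larger differences. Ugt2b36 was at 10.5, 45.5, 36.6 and 48.5 CPM in control cultures, at 9.59, 7.67, 13.8 and 12.1 in MYO5BΔIEC cultures, at 8.84, 8.702, 9.09 and 12.3 in MYO5B(G519R) cultures and at 7.91, 9.96, 11.6 and 11.3 in Compound-1-treated MYO5BΔIEC cultures. Control culture 1 lay at the MYO5B-altered level and the other 3 controls far above it. Ugt2b36 had log2 fold changes of -1.71 ± 0.40 (SE, adjusted p = 0.0108) in MYO5BΔIEC, -1.86 ± 0.39 (SE, adjusted p = 0.00833) in MYO5B(G519R) and -1.79 ± 0.39 (SE, adjusted p = 0.00912) in Compound-1-treated enteroids relative to control. Ugt2b36 stayed past the threshold in MYO5BΔIEC, MYO5B(G519R) and treated enteroids whichever culture was left out, with adjusted p no higher than 0.0402, 0.0308 and 0.0315. Ugt2b5 was at 15.7, 106, 102 and 87.3 CPM in control cultures, at 23.2, 14.4, 34.8 and 23.8 in MYO5BΔIEC cultures, at 15.6, 16.96, 22.1 and 20.2 in MYO5B(G519R) cultures and at 18.5, 17.2, 17.2 and 13.02 in Compound-1-treated MYO5BΔIEC cultures. Control culture 1 had the same place for Ugt2b5, of which 75.3% of the sequence is its own. Ugt2b5 had log2 fold changes of -1.69 ± 0.48 (SE, adjusted p = 0.0256) in MYO5BΔIEC, -2.05 ± 0.47 (SE, adjusted p = 0.0115) in MYO5B(G519R) and -2.24 ± 0.47 (SE, adjusted p = 0.00791) in Compound-1-treated enteroids relative to control. Ugt2b5 stayed past the threshold in MYO5B(G519R) and treated enteroids whichever culture was left out, with adjusted p no higher than 0.0388 and 0.0305. For Ugt2b5, the MYO5BΔIEC call was lost without any 1 of control cultures 2, 3 and 4 and MYO5BΔIEC cultures 1, 2 and 4, with adjusted p up to 0.0791.

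The Ugt1a genes use separate first exons at chr1:88055388-88220002. Ugt1a9 was at 3.36, 30.7, 24.4 and 15.8 CPM in control cultures, at 3.87, 2.04, 5.66 and 2.22 in MYO5BΔIEC cultures, at 2.06, 3.23, 5.22 and 1.84 in MYO5B(G519R) cultures and at 4.12, 1.44, 1.301 and 1.68 in Compound-1-treated MYO5BΔIEC cultures. Ugt1a9 (ENSMUSG00000090175, chr1:88070800-88218997), an isoform that conjugates phenols, had a control range that overlapped those of all 3 MYO5B-altered groups. Ugt1a9 had log2 fold changes of -2.43 ± 0.57 (SE, adjusted p = 0.0116) in MYO5BΔIEC, -2.58 ± 0.59 (SE, adjusted p = 0.0118) in MYO5B(G519R) and -3.12 ± 0.62 (SE, adjusted p = 0.00688) in Compound-1-treated enteroids relative to control. Ugt1a9 stayed past the threshold in MYO5BΔIEC, MYO5B(G519R) and treated enteroids whichever culture was left out, with adjusted p no higher than 0.0424, 0.0386 and 0.0273. Ugt1a7c was at 169.6, 246, 227 and 275 CPM in control cultures, at 201, 153, 188 and 218 in MYO5BΔIEC cultures, at 157, 155, 175 and 175 in MYO5B(G519R) cultures and at 179, 224, 247 and 243 in Compound-1-treated MYO5BΔIEC cultures. Control cultures 2 to 4 lay above every MYO5B(G519R) culture for Ugt1a7c, and control culture 1 lay among them. Ugt1a7c had log2 fold changes of -0.27 ± 0.18 (SE, adjusted p = 0.289) in MYO5BΔIEC, -0.47 ± 0.15 (SE, adjusted p = 0.0433) in MYO5B(G519R) and -0.041 ± 0.18 (SE, adjusted p = 0.884) in Compound-1-treated enteroids relative to control. For Ugt1a7c, the MYO5BΔIEC difference passed without control culture 1, with adjusted p down to 0.0409, and the MYO5B(G519R) call was lost without any 1 of control cultures 2, 3 and 4 and MYO5B(G519R) cultures 1, 2, 3 and 4, with adjusted p up to 0.121. Ugt1a7c in MYO5B(G519R) enteroids also missed the threshold with DESeq2 size factors, no count filter, the replicate block, limma on log2(FPKM + 1) and limma on log2(FPKM + 0.1) (adjusted p = 0.0507 to 0.0692).

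Ugt1a1, the bilirubin-conjugating enzyme, and Ugt1a6a, which conjugates small planar phenols, were singled out after their values were seen. Ugt1a1 was at 37.1, 31.1, 37.8 and 35.5 CPM in control cultures, at 25.7, 16.1, 34.7 and 22.4 in MYO5BΔIEC cultures, at 17.8, 15.5, 14.6 and 15.4 in MYO5B(G519R) cultures and at 24.6, 16.6, 12.7 and 13.6 in Compound-1-treated MYO5BΔIEC cultures. In Ugt1a1 control culture 1 was not low, and the control range lay wholly above those of the MYO5B(G519R) and Compound-1-treated cultures and overlapped that of the MYO5BΔIEC cultures. Ugt1a1 had log2 fold changes of -0.51 ± 0.21 (SE, adjusted p = 0.0905) in MYO5BΔIEC, -1.16 ± 0.12 (SE, adjusted p = 0.00177) in MYO5B(G519R) and -1.07 ± 0.21 (SE, adjusted p = 0.00692) in Compound-1-treated enteroids relative to control. Ugt1a1 stayed past the threshold in MYO5B(G519R) and treated enteroids whichever culture was left out, with adjusted p no higher than 0.0108 and 0.0273. For Ugt1a1, the MYO5BΔIEC difference passed without MYO5BΔIEC culture 3, with adjusted p down to 0.0229. Ugt1a6a was at 13.7, 12.9, 12.8 and 13.3 CPM in control cultures, at 7.64, 5.76, 10.1 and 8.83 in MYO5BΔIEC cultures, at 7.17, 6.84, 6.28 and 5.97 in MYO5B(G519R) cultures and at 10.9, 8.52, 8.35 and 7.56 in Compound-1-treated MYO5BΔIEC cultures. The 4 controls of Ugt1a6a lay within 12.8 to 13.7 CPM, and that range lay wholly above those of all 3 MYO5B-altered groups. Ugt1a6a had log2 fold changes of -0.70 ± 0.19 (SE, adjusted p = 0.01897) in MYO5BΔIEC, -1.01 ± 0.13 (SE, adjusted p = 0.00196) in MYO5B(G519R) and -0.58 ± 0.17 (SE, adjusted p = 0.0299) in Compound-1-treated enteroids relative to control. Ugt1a6a stayed past the threshold in MYO5B(G519R) enteroids whichever culture was left out, with adjusted p no higher than 0.0112. For Ugt1a6a, the MYO5BΔIEC call was lost without any 1 of control cultures 3 and 4 and MYO5BΔIEC cultures 1 and 2, with adjusted p up to 0.0525, and the treated call was lost without any 1 of control cultures 2, 3 and 4 and Compound-1-treated cultures 3 and 4, with adjusted p up to 0.0955.

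The glutathione S-transferases passed the count filter almost as a whole, 22 of 23. Of these 5, 4 and 6 were lower in the 3 comparisons, beside 13.8%, 13.7% and 13.7% of all genes, and none was higher. In MYO5BΔIEC 21 of 22 and in MYO5B(G519R) 22 of 22 lay below 0, with medians of -0.41 and -0.53, while in treated enteroids 18 of 22 did, with a median of -0.26. Without control culture 1 the lower Gst genes numbered 16, 18 and 10, beside 20.8%, 22.1% and 19.2% of all genes. The Gstm cluster at chr3:107895821-108044894 held 3, 2 and 3 of the calls.

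GSTM and GSTA enzymes conjugate electrophiles, among them products of lipid peroxidation. Gstm1 was at 453, 1014, 854 and 779 CPM in control cultures, at 512, 345, 445 and 762 in MYO5BΔIEC cultures, at 359.5, 409, 337 and 737 in MYO5B(G519R) cultures and at 496, 607, 1042 and 915 in Compound-1-treated MYO5BΔIEC cultures. Gsta1 was at 69.5, 533, 587 and 512 CPM in control cultures, at 455, 289, 316 and 345 in MYO5BΔIEC cultures, at 217, 287, 344 and 367 in MYO5B(G519R) cultures and at 369, 389, 932 and 486 in Compound-1-treated MYO5BΔIEC cultures. Control culture 1 was the lowest of all 16 cultures for Gsta1, and it was the lowest control for Gstm1. Gstm1 had log2 fold changes of -0.58 ± 0.28 (SE, adjusted p = 0.152) in MYO5BΔIEC, -0.75 ± 0.30 (SE, adjusted p = 0.0908) in MYO5B(G519R) and -0.019 ± 0.29 (SE, adjusted p = 0.967) in Compound-1-treated enteroids relative to control. Gsta1 had log2 fold changes of -0.27 ± 0.49 (SE, adjusted p = 0.721) in MYO5BΔIEC, -0.48 ± 0.50 (SE, adjusted p = 0.513) in MYO5B(G519R) and 0.35 ± 0.54 (SE, adjusted p = 0.657) in Compound-1-treated enteroids relative to control. For Gstm1, the MYO5BΔIEC difference passed without control culture 1, with adjusted p down to 0.0191, and the MYO5B(G519R) difference passed without any 1 of control culture 1 and MYO5B(G519R) culture 4, with adjusted p down to 0.0111. For Gsta1, the MYO5BΔIEC difference passed without control culture 1, with adjusted p down to 0.009497, and the MYO5B(G519R) difference passed without control culture 1, with adjusted p down to 0.00223. Without control culture 1, Gsta1 had log2 fold changes of -0.62 in MYO5BΔIEC and -0.81 in MYO5B(G519R), and Gstm1 -0.77 and -0.91. Only 19.4% of the Gsta1 sequence is not found elsewhere, 64.7% being shared with Gm3776, so its counts are uncertain.

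Gstm3 and Gstm5 were called lower in MYO5BΔIEC enteroids with all controls kept, and control culture 1 was the lowest control for both. Gstm3 was at 564, 741, 677 and 675 CPM in control cultures, at 387, 255, 315 and 598 in MYO5BΔIEC cultures, at 296, 331, 237 and 581 in MYO5B(G519R) cultures and at 366, 464, 727 and 697 in Compound-1-treated MYO5BΔIEC cultures. Gstm3, abundant per length, had a control range that overlapped those of all 3 MYO5B-altered groups. Gstm3 had log2 fold changes of -0.77 ± 0.24 (SE, adjusted p = 0.0382) in MYO5BΔIEC, -0.88 ± 0.25 (SE, adjusted p = 0.0287) in MYO5B(G519R) and -0.24 ± 0.23 (SE, adjusted p = 0.467) in Compound-1-treated enteroids relative to control. For Gstm3, the MYO5BΔIEC call was lost without any 1 of control cultures 2, 3 and 4 and MYO5BΔIEC cultures 1, 2 and 3, with adjusted p up to 0.103, and the MYO5B(G519R) call was lost without any 1 of control cultures 2, 3 and 4 and MYO5B(G519R) cultures 1, 2 and 3, with adjusted p up to 0.0839. Gstm3 in MYO5BΔIEC enteroids also missed the threshold with all 4 groups in 1 fit and the length trend removed (adjusted p = 0.0509 to 0.165). Gstm3 in MYO5B(G519R) enteroids also missed the threshold with the length trend removed (adjusted p = 0.0696). With the length trend removed the MYO5BΔIEC difference of Gstm3 was -0.48. Gstm5 was at 32.4, 57.2, 61.7 and 66.3 CPM in control cultures, at 27.8, 30.1, 33.5 and 32.5 in MYO5BΔIEC cultures, at 34.3, 33.5, 28.5 and 44.4 in MYO5B(G519R) cultures and at 35.9, 33.6, 22.6 and 31.4 in Compound-1-treated MYO5BΔIEC cultures. Gstm5 had a control range that overlapped those of all 3 MYO5B-altered groups. Gstm5 had log2 fold changes of -0.81 ± 0.21 (SE, adjusted p = 0.0162) in MYO5BΔIEC, -0.63 ± 0.22 (SE, adjusted p = 0.0595) in MYO5B(G519R) and -0.82 ± 0.23 (SE, adjusted p = 0.0247) in Compound-1-treated enteroids relative to control. For Gstm5, the MYO5BΔIEC call was lost without any 1 of control cultures 3 and 4 and MYO5BΔIEC cultures 1 and 2, with adjusted p up to 0.05499, and the MYO5B(G519R) difference passed without any 1 of control culture 1 and MYO5B(G519R) culture 4, with adjusted p down to 9.41e-04, and the treated call was lost without any 1 of control cultures 2, 3 and 4 and Compound-1-treated cultures 3 and 4, with adjusted p up to 0.0769. Gstm5 in treated enteroids also missed the threshold with the replicate block and the length trend removed (adjusted p = 0.0583 to 0.0629).

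Gstz1, singled out after its values were seen, isomerises maleylacetoacetate in tyrosine breakdown. Gstz1 was at 60.1, 64.5, 65.9 and 68.7 CPM in control cultures, at 39.6, 36.4, 43.5 and 47.5 in MYO5BΔIEC cultures, at 39.7, 42.2, 35.01 and 40.9 in MYO5B(G519R) cultures and at 45.1, 42.5, 24.2 and 31.97 in Compound-1-treated MYO5BΔIEC cultures. Its 4 controls lay close together, and the control range lay wholly above those of all 3 MYO5B-altered groups. Gstz1 had log2 fold changes of -0.63 ± 0.13 (SE, adjusted p = 0.00575) in MYO5BΔIEC, -0.72 ± 0.10 (SE, adjusted p = 0.00225) in MYO5B(G519R) and -0.85 ± 0.19 (SE, adjusted p = 0.0105) in Compound-1-treated enteroids relative to control. Gstz1 stayed past the threshold in MYO5BΔIEC, MYO5B(G519R) and treated enteroids whichever culture was left out, with adjusted p no higher than 0.02603, 0.0123 and 0.0395. Gstp3, of the Pi class, showed the smallest called difference in MYO5BΔIEC enteroids. Gstp3 was at 35.7, 36.6, 30.7 and 29.8 CPM in control cultures, at 21.9, 23.7, 27.8 and 25.8 in MYO5BΔIEC cultures, at 27.3, 26.9, 17.4 and 19.8 in MYO5B(G519R) cultures and at 21.6, 34.6, 6.65 and 10.1 in Compound-1-treated MYO5BΔIEC cultures. Gstp3 had log2 fold changes of -0.41 ± 0.14 (SE, adjusted p = 0.04596) in MYO5BΔIEC, -0.54 ± 0.17 (SE, adjusted p = 0.0385) in MYO5B(G519R) and -0.87 ± 0.42 (SE, adjusted p = 0.141) in Compound-1-treated enteroids relative to control. For Gstp3, the MYO5BΔIEC call was lost without any 1 of control cultures 2, 3 and 4 and MYO5BΔIEC cultures 1, 2 and 4, with adjusted p up to 0.1303, and the MYO5B(G519R) call was lost without any 1 of control cultures 2, 3 and 4 and MYO5B(G519R) cultures 3 and 4, with adjusted p up to 0.09797, and the treated difference passed without Compound-1-treated culture 2, with adjusted p down to 0.0192. Gstp3 in MYO5BΔIEC enteroids also missed the threshold with DESeq2 size factors, no count filter, all 4 groups in 1 fit, the replicate block, limma on log2(FPKM + 0.1) and the length trend removed (adjusted p = 0.0504 to 0.994). Gstp3 in MYO5B(G519R) enteroids also missed the threshold with DESeq2 size factors, all 4 groups in 1 fit and the length trend removed (adjusted p = 0.0508 to 0.618). Once the length trend was removed, the Gstp3 log2 fold changes were -0.0026 in MYO5BΔIEC and -0.16 in MYO5B(G519R) enteroids.

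Sulfotransferases were the least represented family, with 8 of 21 members past the count filter. All 8 Sult2a genes, known from liver, were at 0 in every library. Sult1 genes lay mostly below 0, with 0, 1 and 2 of 4 called lower, beside 13.8%, 13.7% and 13.7% of all genes. Sult4a1 rose. Sult1d1 was at 99.2, 198, 183 and 158 CPM in control cultures, at 100.2, 100.4, 179.8 and 77.2 in MYO5BΔIEC cultures, at 76.01, 88.8, 110.2 and 70.3 in MYO5B(G519R) cultures and at 128, 77.5, 138 and 128 in Compound-1-treated MYO5BΔIEC cultures. Sult1d1, which sulfates catecholamines, had a control range that overlapped those of all 3 MYO5B-altered groups. Sult1d1 had log2 fold changes of -0.47 ± 0.28 (SE, adjusted p = 0.228) in MYO5BΔIEC, -0.88 ± 0.22 (SE, adjusted p = 0.0162) in MYO5B(G519R) and -0.43 ± 0.24 (SE, adjusted p = 0.202) in Compound-1-treated enteroids relative to control. For Sult1d1, the MYO5BΔIEC difference passed without any 1 of control culture 1 and MYO5BΔIEC culture 3, with adjusted p down to 0.0428, and the MYO5B(G519R) call was lost without any 1 of control culture 3 and MYO5B(G519R) culture 1, with adjusted p up to 0.0519, and the treated difference passed without control culture 1, with adjusted p down to 0.0347. Sult4a1 was at 0.815, 0.299, 0.481 and 0.741 CPM in control cultures, at 0.809, 2.34, 1.95 and 1.11 in MYO5BΔIEC cultures, at 1.49, 1.24, 1.74 and 1.03 in MYO5B(G519R) cultures and at 1.54, 2.26, 2.897 and 1.88 in Compound-1-treated MYO5BΔIEC cultures. Sult4a1, a brain sulfotransferase with no firmly known substrate, stayed low in all cultures, at most 2.90 CPM. Sult4a1 had log2 fold changes of 1.41 ± 0.45 (SE, adjusted p = 0.0402) in MYO5BΔIEC, 1.23 ± 0.37 (SE, adjusted p = 0.0344) in MYO5B(G519R) and 1.87 ± 0.39 (SE, adjusted p = 0.00788) in Compound-1-treated enteroids relative to control. Sult4a1 stayed past the threshold in treated enteroids whichever culture was left out, with adjusted p no higher than 0.0312. For Sult4a1, the MYO5BΔIEC call was lost without any 1 of control cultures 2, 3 and 4 and MYO5BΔIEC cultures 2 and 3, with adjusted p up to 0.133, and the MYO5B(G519R) call was lost without any 1 of control cultures 2, 3 and 4 and MYO5B(G519R) cultures 1, 2 and 3, with adjusted p up to 0.0943. Sult4a1 in MYO5BΔIEC enteroids also missed the threshold with the replicate block, a covariate for donor sex and limma on log2(FPKM + 1) (adjusted p = 0.0506 to 0.128). Sult4a1 in MYO5B(G519R) enteroids also missed the threshold with no count filter and the replicate block (adjusted p = 0.0508 to 0.0636).

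Sult6b2 spanned 33.7 to 112 CPM in control, 72.8 to 163 in untreated and 60.7 to 189 in Compound-1-treated MYO5BΔIEC, and 62.7 to 137 in MYO5B(G519R) cultures. Sult6b2 had log2 fold changes of 0.50 ± 0.35 (SE, adjusted p = 0.324) in MYO5BΔIEC, 0.14 ± 0.37 (SE, adjusted p = 0.814) in MYO5B(G519R) and 0.75 ± 0.40 (SE, adjusted p = 0.184) in Compound-1-treated enteroids relative to control. Sult2b1, a cholesterol sulfotransferase singled out after its values were seen, was higher than control in Compound-1-treated enteroids. Sult2b1 was at 7.74, 16.9, 14.6 and 11.6 CPM in control cultures, at 19.3, 16.4, 21.9 and 18.5 in MYO5BΔIEC cultures, at 13.2, 18.1, 17.4 and 19.6 in MYO5B(G519R) cultures and at 21.4, 22.1, 33.7 and 31.7 in Compound-1-treated MYO5BΔIEC cultures. Sult2b1 had log2 fold changes of 0.59 ± 0.23 (SE, adjusted p = 0.07603) in MYO5BΔIEC, 0.43 ± 0.23 (SE, adjusted p = 0.201) in MYO5B(G519R) and 1.10 ± 0.26 (SE, adjusted p = 0.0115) in Compound-1-treated enteroids relative to control. Sult2b1 stayed past the threshold in treated enteroids whichever culture was left out, with adjusted p no higher than 0.0402. For Sult2b1, the MYO5BΔIEC difference passed without control culture 2, with adjusted p down to 0.0458.

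**Figure D5:**
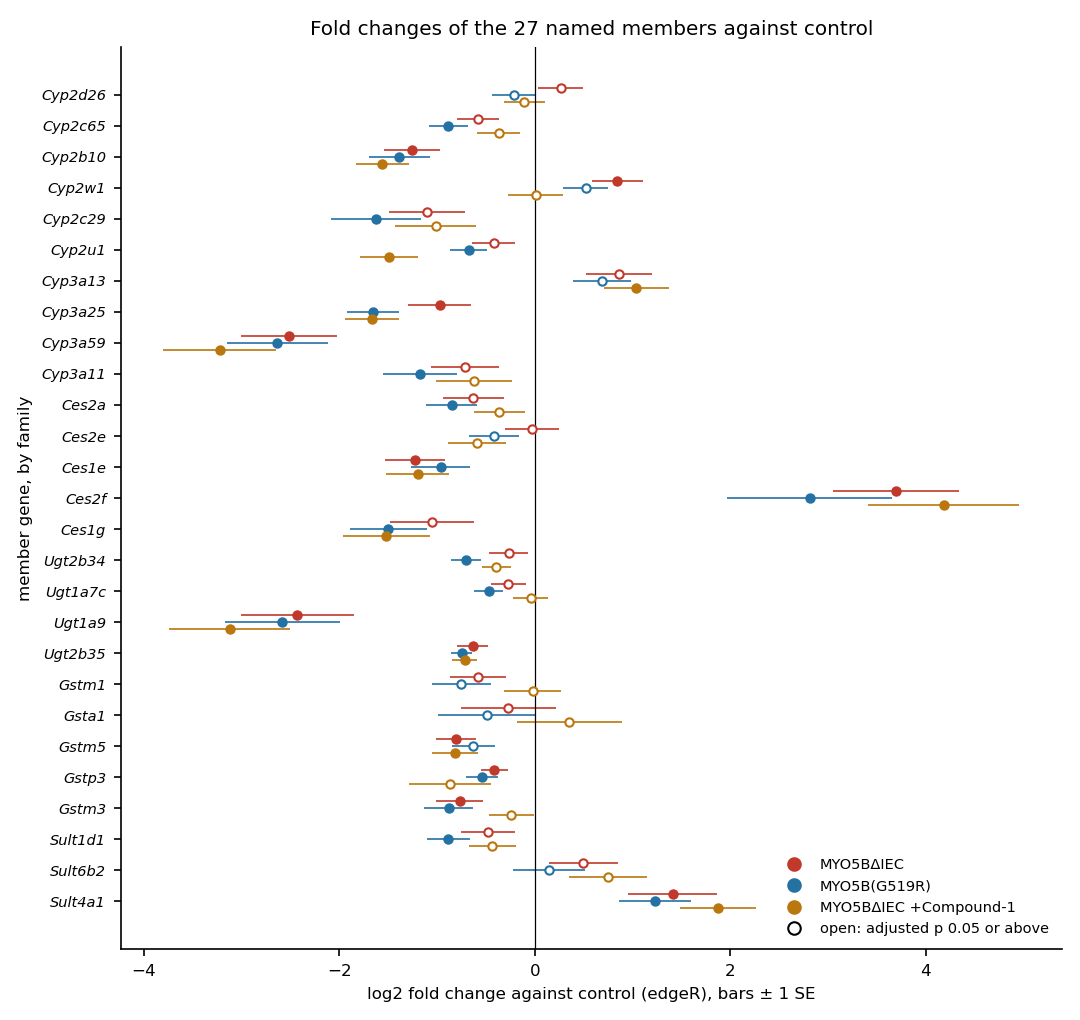
Log2 fold change against control (x axis, bars ± 1 SE) of the 27 named members by family for each MYO5B-altered group; open symbols have an adjusted edgeR p of 0.05 or more. Ces2f lies farthest above 0, and Cyp3a59 and Ugt1a9 farthest below.

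Set side by side, 15 members were lower than control and 2 were higher in both MYO5BΔIEC and MYO5B(G519R) enteroids, from tests that share the controls. Of all genes, 13.8% were lower and 13.5% higher in MYO5BΔIEC, and 13.7% and 13.1% in MYO5B(G519R). The share of all genes called in both was not computed, so these counts do not set the members apart from other genes. The 15 were Ces1e, Ces1f, Cyp2b10, Cyp2c66, Cyp2c68, Cyp3a25, Cyp3a59, Gstm3, Gstp3, Gstz1, Ugt1a6a, Ugt1a9, Ugt2b35, Ugt2b36 and Ugt2b5, and the 2 were Ces2f and Sult4a1. A further 16 members were called lower in MYO5B(G519R) alone and 2 in MYO5BΔIEC alone. These lists do not show that the models differ. In the direct comparison of MYO5B(G519R) with MYO5BΔIEC 0 of 86 members were called by edgeR, 10 had an unadjusted p under 0.05 and DESeq2 called 0, beside 0.00557% (1 gene), 4.3% and 0.0223% of all 17943 genes. Of the 86, 78 lay below 0, with a median of -0.30, beside 52.3% of all genes and a median of -0.014. The smallest adjusted p of a member was 0.838. The 95% confidence interval of the log2 fold change was -0.97 to -0.30 for Cyp2c55 and -1.03 to -0.26 for Ugt1a1, the members with the lowest unadjusted p. These intervals are not adjusted for that choice, and neither member was called. For Cyp2b10 it was -0.56 to 0.31 and for Ces2f -2.04 to 0.28.

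Whether the LPAR5 agonist changed these genes in MYO5BΔIEC enteroids is asked by the comparison of treated with untreated cultures. By edgeR 0 of 87 members were called, beside 0% of all 18037 genes, while 21 members had an unadjusted p under 0.05 and DESeq2 called 1, Ces1d, with an adjusted p of 0.0418. Over all genes 7.51% had an unadjusted p under 0.05 and DESeq2 called 0.505%. In edgeR the log2 fold change of Ces1d was -1.73 ± 0.50 (SE, adjusted p = 0.532), from 6.97 to 38.9 CPM in untreated to 2.90 to 11.4 CPM in treated cultures. Members below 0 numbered 58 of 87, with a median of -0.15, beside 49.3% of all genes and a median of 0.0034. The smallest adjusted edgeR p of a member was 0.532. Ugt2a3 had the lowest unadjusted p, with a 95% confidence interval of the log2 fold change of -1.42 to -0.43, not adjusted for that choice. For Cyp2b10 the interval was -0.68 to 0.020, for Cyp3a25 -1.21 to -0.23, for Ces2f -0.53 to 1.43 and for Ugt1a9 -1.60 to 0.15. An interval that crosses 0, as for Cyp2b10, Ces2f and Ugt1a9, leaves changes in either direction possible. The Cyp3a25 interval does not cross 0, but it is not adjusted for the number of genes tested and Cyp3a25 was not called. The Gst sum was 5719 and 4553 CPM in treated cultures 3 and 4, above the 2640 to 3320 CPM of the untreated cultures, and 3024 and 3263 CPM in treated cultures 1 and 2. The 6 goblet markers summed to 5908 and 4182 CPM in treated cultures 3 and 4, to 2259 and 1939 CPM in treated cultures 1 and 2 and to 1896 to 2365 CPM in untreated cultures, and their part in the Gst levels was not tested. Gsta4, which conjugates 4-hydroxynonenal, had a log2 fold change of 0.85 ± 0.29 (SE, adjusted p = 0.5605), and Gsta2 one of 1.07 ± 0.36 (SE, adjusted p = 0.5605).

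The genes around these families in the pathway went several ways. NADPH-cytochrome P450 oxidoreductase, Por, which gives electrons to the microsomal P450 enzymes, rose in all 3 comparisons against control. Por was at 188, 153, 165 and 147 CPM in control cultures, at 409, 344, 371 and 284 in MYO5BΔIEC cultures, at 319.6, 343, 352 and 270.5 in MYO5B(G519R) cultures and at 384, 325, 484 and 441 in Compound-1-treated MYO5BΔIEC cultures. Its control range lay wholly below those of all 3 MYO5B-altered groups. Por had log2 fold changes of 1.12 ± 0.16 (SE, adjusted p = 0.001698) in MYO5BΔIEC, 0.98 ± 0.13 (SE, adjusted p = 0.00207) in MYO5B(G519R) and 1.32 ± 0.17 (SE, adjusted p = 0.00398) in Compound-1-treated enteroids relative to control. Counts of this and the following lists stand beside 13.5%, 13.1% and 15.7% of all genes higher and 13.8%, 13.7% and 13.7% lower. In the list of 19 electron donor and cofactor genes 2, 2 and 2 were higher and 3, 3 and 4 lower in the 3 comparisons against control. Slc35d1, a UDP-glucuronic acid transporter, was the other higher gene, with log2 fold changes of 1.02 ± 0.21 (SE, adjusted p = 0.00697) in MYO5BΔIEC and 0.88 ± 0.20 (SE, adjusted p = 0.0121) in MYO5B(G519R). Cyb5a, cytochrome b5, had -0.82 ± 0.30 (SE, adjusted p = 0.0658) and -0.99 ± 0.28 (SE, adjusted p = 0.0286).

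Of 29 tested genes among 34 other phase I enzymes, 6, 9 and 7 were lower and 2, 1 and 4 higher, with medians of -0.53, -0.65 and -0.49. Aldh1a1, retinal dehydrogenase, had log2 fold changes of -1.31 ± 0.40 (SE, adjusted p = 0.0319) in MYO5BΔIEC and -1.63 ± 0.39 (SE, adjusted p = 0.01397) in MYO5B(G519R), and the esterase Aadac -1.10 ± 0.21 (SE, adjusted p = 0.00487) and -1.41 ± 0.17 (SE, adjusted p = 0.00185). Of 9 tested among 16 other phase II enzymes, 2, 2 and 3 were lower and 0 higher. Mgst1, microsomal glutathione S-transferase, had -1.24 ± 0.34 (SE, adjusted p = 0.0215) and -1.22 ± 0.34 (SE, adjusted p = 0.0266). Among 15 efflux and uptake transporters 6, 5 and 7 were higher and 0, 1 and 1 lower. Abcb1b, 1 of the mouse P-glycoprotein genes, spanned 0.0941 to 1.12 CPM in control, 3.57 to 20.8 in untreated and 3.57 to 11.2 in Compound-1-treated MYO5BΔIEC, and 3.83 to 16.4 in MYO5B(G519R) cultures. Abcb1b had log2 fold changes of 4.42 ± 0.68 (SE, adjusted p = 0.00219) in MYO5BΔIEC, 3.46 ± 0.71 (SE, adjusted p = 0.00746) in MYO5B(G519R) and 3.52 ± 0.63 (SE, adjusted p = 0.0052) in Compound-1-treated enteroids relative to control. Abcc3 and Abcc4, which export conjugates, had 1.36 ± 0.25 (SE, adjusted p = 0.00378) and 1.61 ± 0.20 (SE, adjusted p = 0.00142) in MYO5BΔIEC enteroids.

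Of 24 transcriptional regulators 7, 9 and 9 were higher and 3, 4 and 2 lower. PXR, Nr1i2, had a log2 fold change of 0.13 ± 0.14 (SE, adjusted p = 0.543) in MYO5BΔIEC and 0.063 ± 0.12 (SE, adjusted p = 0.749) in MYO5B(G519R). CAR, Nr1i3, had -0.092 ± 0.37 (SE, adjusted p = 0.881) and -0.46 ± 0.36 (SE, adjusted p = 0.376). Transcript levels of these receptors say nothing of their activity. Hnf4a had 0.34 ± 0.14 (SE, adjusted p = 0.101) and 0.39 ± 0.11 (SE, adjusted p = 0.0268), and its paralog Hnf4g -0.49 ± 0.27 (SE, adjusted p = 0.204) and -1.06 ± 0.26 (SE, adjusted p = 0.0143). No gene of the 5 pathway lists was called by edgeR between the 2 models or between treated and untreated MYO5BΔIEC enteroids.

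Cell type markers and the mitochondrial share of counts moved beside these results. Mitochondrial genes took 6.41 to 10.4% of the counts in control, 4.16 to 6.63% in untreated and 3.79 to 6.11% in treated MYO5BΔIEC, and 4.20 to 5.37% in MYO5B(G519R) cultures, and with those genes left out 22, 33 and 32 members were called, as with them. Beside the same shares of all genes, of 12 enterocyte markers 3, 2 and 3 were higher and 0, 1 and 3 lower, and their sum spanned 4836 to 20056 CPM in control, 9730 to 17453 in untreated and 9287 to 11816 in treated MYO5BΔIEC, and 8108 to 13021 CPM in MYO5B(G519R) cultures. The 5 stem cell markers summed to 2247 to 6289 CPM in control and 821 to 1974, 1165 to 2500 and 511 to 1709 CPM in the other groups, with Olfm4 the 1 lower gene in each. The 5 Paneth markers summed to 3051 to 7316 CPM in control and 2792 to 4081, 2894 to 3710 and 3056 to 4283 CPM in the other groups, with 2, 2 and 1 lower. The 5 proliferation markers had 3, 2 and 2 lower, and the 6 goblet markers 2, 2 and 2 higher and 1, 2 and 1 lower, with sums of 1415 to 1724 CPM in control and 1896 to 2365, 1910 to 2330 and 1939 to 5908 CPM in the other groups. Of 6 enteroendocrine markers 2, 1 and 1 were higher, and of 5 tested tuft cell markers 1, 2 and 4 were lower. Hepatocyte markers summed to 5.62 to 32.3 CPM over all cultures, with Fgb at 0 and 1 of 3 tested lower in each comparison. The part of these cell types and of the mitochondrial share in the enzyme levels was not tested.

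How far paralogs could share reads was read from the transcripts. Of the 89 members that passed the count filter, 69 had at least 90% of their 100-base stretches to themselves. Among these, 12 of 67 tested were lower and 5 higher in MYO5BΔIEC, 24 and 2 of 67 with G519R, and 22 and 5 of 68 with Compound-1. Among the 20 members with less sequence of their own 5, 7 and 5 were lower and 0 higher. Of all genes tested, 13.8%, 13.7% and 13.7% were lower and 13.5%, 13.1% and 15.7% higher.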

How the data were processed

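Poly-A RNA from 16 enteroid cultures was sequenced in paired ends. Per the labels and the submitters' processing notes, the authors aligned reads to GRCm38 (mm10) and counted them per gene with HTSeq 0.6.1, and the notes also name STAR 2.5, TopHat and DESeq2. The deposited counts are whole reads per gene, unnormalized. The deposited FPKM values hold those counts after the authors scaled them to gene length and to a size per library, and were used to compare genes within a group.

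Groups were compared 2 at a time on the counts with edgeR 4.0.16 in R 4.3.3 (TMM, quasi-likelihood test, genes with 10 or more counts in 2 or more of the 8 libraries, Benjamini-Hochberg adjustment over all genes tested, threshold 0.05). CPM values were scaled by TMM over all 16 libraries. Alternatives were DESeq2 1.42.0, limma 3.58.1 on log2(FPKM + 1) and log2(FPKM + 0.1), other filters and scalings, donor sex (read from sex-linked transcripts) as a covariate, a length trend removed, a replicate block and each culture left out. The tests were checked on simulated data.

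The members, pathway lists and marker lists were chosen with earlier results of these data known. Named members were, per family, the 2 of highest mean FPKM and the called members of highest and lowest log2 fold change (mean of 1 CPM or more) in MYO5BΔIEC and in MYO5B(G519R) against control. Any called in the comparisons without the control group would have been added. Others are named as chosen after their values were seen. Protein identity between members was not computed. In its place, chosen after seeing the data, the share of each member's 100-base transcript stretches found in no other gene was read from GENCODE transcripts of GRCm38. Promoters are RefSeq, GRCm38.p6. One of the motifs searched is not reported here.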

Additional observations from a re-analysis of the deposited data

Results flagged for a closer look

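In each group of 4 cultures, a culture far from the other 3 was looked for by Dixon's ratio above its 95% critical value in the named members and family sums. It was found in 12 of 132 groups of values, where chance alone gives about 1 in 20. Control culture 1 accounted for 4 of them. It was low for Cyp2c65 (224 CPM against 377 to 400), Ces2e (396 against 884 to 956) and Gsta1 (69.5 against 512 to 587), and high for Cyp3a59 (4.58 CPM against 1.36 to 1.54).

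Single MYO5B-altered cultures accounted for the others. Cyp2b10 was at 74.9 CPM in MYO5BΔIEC culture 2 against 120 to 128, and at 154 CPM in MYO5B(G519R) culture 4 against 80.6 to 92.4. Ces2a was at 563 CPM in MYO5B(G519R) culture 4 against 404 to 430. Ces2f was at 12.1 CPM in MYO5B(G519R) culture 3 against 1.76 to 2.38, and at 27.5 CPM in treated culture 3 against 6.36 to 6.90. In treated cultures, Ugt2b34 was at 622 CPM in culture 2 against 708 to 723, Ugt1a9 at 4.12 CPM in culture 1 against 1.30 to 1.68, and Sult1d1 at 77.5 CPM in culture 2 against 128 to 138.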

How the results depend on the processing

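Leaving out a culture moved the counts of members called most, from 22 to between 9 and 50 in MYO5BΔIEC, from 33 to between 18 and 61 in MYO5B(G519R) and from 32 to between 19 and 51 in treated MYO5BΔIEC enteroids against control, the highest count each time without control culture 1. The other alternatives gave 16 to 31, 24 to 40 and 27 to 37 calls, and medians of -0.50 to -0.28, -0.79 to -0.44 and -0.54 to -0.28. Between treated and untreated MYO5BΔIEC enteroids DESeq2 called 1 member and the remaining alternatives 0, and between the models all gave 0. With the replicate block the counts were 16, 32 and 29 against control and 0 in the other comparisons. Same-numbered cultures are not a pair by their labels, and in no comparison did all 4 same-numbered pairs correlate above 0.1 (0, 1 and 0 of 4 against control, 0 for treated against untreated and 3 between the models, where 3 of 4 also correlated best with their own number), so the block was not used. Some small differences changed sign. Ces2e in MYO5BΔIEC (-0.026) was 0.031 with the replicate block, 0.059 and 0.060 with limma on log2(FPKM + 1) and log2(FPKM + 0.1), 0.049 with the length trend removed and -0.25 to 0.080 with a culture left out. Gsta1 in MYO5BΔIEC (-0.27) was 0.12 with both limma fits and 0.20 with the length trend removed. In treated enteroids against control, Gstm1 (-0.019) was 0.0098 with DESeq2 and with DESeq2 size factors in edgeR, 0.27 with the length trend removed and -0.21 to 0.14 with a culture left out. The length trend removed also gave 0.11 for Cyp2d26 and 0.066 for Gstm3. With a culture left out, treated enteroids spanned -0.25 to 0.025 for Cyp2d26, -0.10 to 0.13 for Cyp2w1, -0.039 to 0.55 for Gsta1 and -0.14 to 0.056 for Ugt1a7c, and MYO5B(G519R) enteroids -0.15 to 0.35 for Sult6b2. The cause of these changes was not tested. Members below 10 counts in 2 libraries cannot be compared at this depth.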
